A study of Mus musculus with 10 samples.

Results

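The Cyp2c genes are a family of cytochrome P450 enzymes, and the 10 described here are Cyp2c29, Cyp2c37, Cyp2c38, Cyp2c39, Cyp2c40, Cyp2c44, Cyp2c50, Cyp2c54, Cyp2c69 and Cyp2c70. They were chosen by name from the 55291 genes of the count table. 9 were found by symbol, and Cyp2c44 was found as Cyp2c23, the symbol under which RefSeq lists Cyp2c44 as a synonym. All 10 passed the filter on low counts, which left 17015 genes tested.

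Bulk RNA-seq was made from 10 livers of female mice aged 16 to 20 weeks, all of which carried a Cas9 gene behind a stop cassette. Every mouse received an AAV8 virus, at 1000000000000 particles, carrying a guide RNA and a Cre gene under the TBG promoter, which is active in hepatocytes, so that the other cells of the liver should keep Bap1 intact. The guide was either a non-targeting control (NTC) or directed against Bap1 (sgBap1), which encodes a deubiquitinase, and 10 days later the mice were injected with carbon tetrachloride (CCl4) in olive oil or with olive oil alone (Veh) at 10 µL per g of body weight. Livers were taken after 48 hours, and each vehicle group (NTC-Veh and sgBap1-Veh) held 2 livers and each CCl4 group (NTC-CCl4 and sgBap1-CCl4) 3. The controls thus also carried the virus, Cre and Cas9.

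The total estimated count was 33047900 to 52199900 per liver, so that 3 counts correspond to at most 0.112 CPM (counts per 1000000 counts of the library, scaled by TMM, a method that equalizes the bulk of genes between libraries). Bap1 was lower in every sgBap1 liver, at 18.5 ± 1.35 against 34.8 ± 0.027 CPM under vehicle (SD over 2 livers) and 19.3 ± 2.43 against 30.4 ± 1.00 CPM under CCl4 (SD over 3 livers), with edgeR adjusted p-values of 0.0208 and 0.0295. Of 11 hepatocyte markers none was at 0 in all livers of a group, and their sum was 76731 to 165012 CPM per liver. In sgBap1-CCl4 replicate 2 the fat cell genes Adipoq and Plin1 stood at 36.4 and 34.5 CPM, whereas no other liver exceeded 0.043 CPM for either gene. The 7 adipocyte markers summed to 300.6 CPM there and to at most 16.3 CPM in each liver of the other groups. Values without this liver are given for some results.

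P450 enzymes sit in the endoplasmic reticulum, carry a haem group, and take electrons from P450 oxidoreductase to insert an oxygen atom into fatty acids, steroids and drugs. Cyp2c enzymes of the mouse liver are known for turning arachidonic acid and linoleic acid into epoxides and hydroxy acids, and Cyp2c70 for making the muricholic acids that set mouse bile apart from human bile. In the liver they belong to hepatocytes, and many P450 genes are strongest around the central veins, where CCl4 is turned into its toxic radical by Cyp2e1.

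On the GRCm38 build (GENCODE vM21), 9 of the 10 genes lay in a cluster of 14 protein-coding Cyp2c genes at chr19:39007019-40187333, and Cyp2c23 lay apart at chr19:44005022-44029208. The members are so alike that reads could not always be assigned to one of them. Of the stretches of 50 bases, the read length, in its transcripts, Cyp2c40 shared 60.3% with another gene, Cyp2c69 54.3%, Cyp2c37 30.1%, Cyp2c54 25.7% and Cyp2c50 18.3%. The shares were lower for Cyp2c39, at 12.05%, for Cyp2c38, at 7.45%, and for Cyp2c29, at 4.25%, mostly with the pseudogene Cyp2c53-ps that overlaps Cyp2c29 on the same strand. Cyp2c70 and Cyp2c23 shared none. These shares are for single reads. The reads came in pairs, so a fragment could also be assigned through its other read, and fewer fragments may be ambiguous.

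The closest relatives of Cyp2c40 were Cyp2c69 and 2 genes that are not members, Cyp2c67 and Cyp2c68, and the coding sequence of Cyp2c40 was 97.9% identical to that of Cyp2c69 and 98.1% to that of Cyp2c68. For each group of relatives the 60 coding bases of the reference (GENCODE vM21) that vary most among its genes are shown, because such differing bases are what a read needs to be assigned; most of the sequence is more alike than this. Capitals mark bases that differ from the gene on the top line.
Cyp2c40: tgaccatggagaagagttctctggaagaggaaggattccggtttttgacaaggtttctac
Cyp2c69: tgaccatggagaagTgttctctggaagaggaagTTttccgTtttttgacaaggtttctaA
Cyp2c67: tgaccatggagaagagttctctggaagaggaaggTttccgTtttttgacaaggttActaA
Cyp2c68: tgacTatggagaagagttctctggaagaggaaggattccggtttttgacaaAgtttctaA

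In this window 8 positions varied among the 4 genes, and the longest run identical in all of them over the aligned coding sequences was 113 bases, against single reads of 50 bases, which came in pairs. Cyp2c37, Cyp2c50 and Cyp2c54 formed the next group, with 96.1% identity between Cyp2c37 and Cyp2c50, 95.2% between Cyp2c50 and Cyp2c54, and a longest shared run of 89 bases.
Cyp2c50: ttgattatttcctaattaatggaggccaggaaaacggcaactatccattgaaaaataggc
Cyp2c54: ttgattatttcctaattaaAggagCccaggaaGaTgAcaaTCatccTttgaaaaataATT
Cyp2c37: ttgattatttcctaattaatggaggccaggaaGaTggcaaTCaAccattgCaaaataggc

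In the last group, Cyp2c38 and Cyp2c39 were 94.2% identical and Cyp2c29 was 89.5% identical to Cyp2c39, with a longest run of 51 bases shared by all 3.
Cyp2c29: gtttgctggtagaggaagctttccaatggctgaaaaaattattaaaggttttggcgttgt
Cyp2c38: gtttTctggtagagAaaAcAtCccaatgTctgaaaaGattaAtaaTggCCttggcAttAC
Cyp2c39: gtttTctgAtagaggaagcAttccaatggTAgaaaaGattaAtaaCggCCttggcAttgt

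Cyp2c23 and Cyp2c70 had no close relative, with at most 67.6% and 70.3% identity to any other Cyp2c gene. The deposited estimated counts of both were whole numbers (within 1e-09) in all 10 livers, and so were those of Cyp2c29, although 132 of its 3106 stretches occur in another gene. The counts of the other 7 members were whole in 0 to 2 livers, as when reads are shared out by estimation. Levels and changes of these 7 are uncertain gene by gene, so changes of sums over relatives are given with theirs. The level and changes of Cyp2c29 are uncertain as far as it overlaps Cyp2c53-ps, with which it is also summed below.

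In NTC-Veh livers the members made up 0.556% to 0.568% of all counts. Under vehicle their summed CPM was 6874 ± 277 in NTC and 5350 ± 195 in sgBap1 livers (SD over 2 livers). Under CCl4 the sum was 1148 ± 173 in NTC and 1128 ± 317 in sgBap1 livers (SD over 3 livers), the latter 1290 without replicate 2. The livers of the vehicle groups stood between 5212 and 7070 and those of the CCl4 groups between 805 and 1438, so the treatments did not overlap.

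Per kb of transcript (the reference transcript with the longest coding sequence), the order of levels in NTC-Veh began with Cyp2c37 at 708 ± 38.6 CPM per kb, which did not overlap with Cyp2c50 at 592 ± 45.5 (SD, n = 2). From Cyp2c50 the order went on with Cyp2c29, Cyp2c69 and Cyp2c40, at 562, 545 and 513 CPM per kb, each overlapping its neighbour. Cyp2c70 at 395, Cyp2c54 at 259, Cyp2c23 at 195, Cyp2c38 at 54.4 and Cyp2c39 at 7.59 CPM per kb followed without overlap, so that the highest member was 93.3 times the lowest. In the other 3 groups Cyp2c29 stood highest, without overlap with the next member, at 618 ± 98.6 CPM per kb in sgBap1-Veh, 187 ± 27.9 in NTC-CCl4 and 208 ± 42.4 in sgBap1-CCl4. Cyp2c39 stood lowest in every group.

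**Figure D1:**
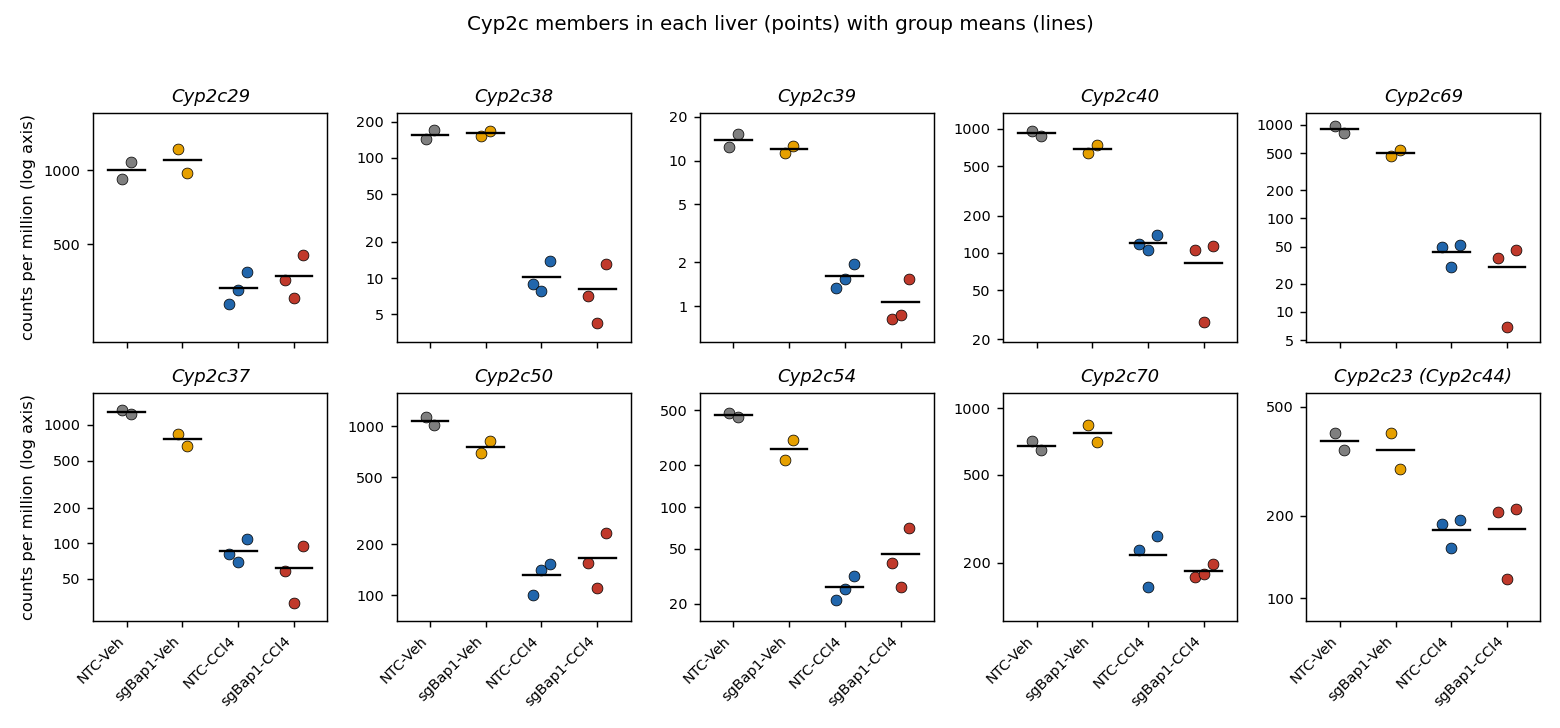
Level of each member in CPM (log axis, a scale of its own per gene) in the 4 groups, with a point for each liver and a line at the group mean. All CCl4 livers sat below all vehicle livers for every member, and Cyp2c69 fell from 830 to 965 CPM in NTC-Veh to 30.2 to 51.5 CPM in NTC-CCl4.

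The comparison of CCl4 with vehicle in NTC livers asks how the injury alone changed the family. All 10 members were lower, by 2.10-fold for Cyp2c23 to 20.5-fold for Cyp2c69, and in each of them every CCl4 liver was below every vehicle liver. Of all genes tested, 26.6% were called lower in this comparison and 35.0% were lower without overlap. The members' median log2 fold change was -3.07, against 0.03 for all genes (edgeR quasi-likelihood test with Benjamini-Hochberg adjustment over all genes tested, used throughout, with a threshold of 0.05). In bulk tissue, fewer hepatocytes and less RNA of these genes per hepatocyte cannot be told apart. Scaled by library size alone, which moved the median of all genes to 0.50 and the share of called genes that were lower from 49.2% to 19.5%, all 10 members were still called lower, at log2 fold changes of -3.88 to -0.59.

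Cyp2c69, close in sequence to Cyp2c40, had 965 and 830.0 CPM in the NTC-Veh livers and 49.9, 30.2 and 51.5 CPM in the NTC-CCl4 livers. Its log2 fold change of -4.36 (SE 0.68, adjusted p = 0.00101) was the lowest of the members, and 0.464% of the genes tested had a lower value. Cyp2c40, an enzyme that hydroxylates arachidonic acid, had 966 and 885 CPM with vehicle and 118, 105 and 139 CPM with CCl4 (log2 fold change -2.94, SE 0.49, adjusted p = 0.0012). The relatives Cyp2c67 and Cyp2c68, which share reads with both, had log2 fold changes of -1.62 and -1.60 (adjusted p = 0.000536 and 0.000114). Summed over these 4 genes, the log2 fold change was -2.49, so Cyp2c69 and Cyp2c40 lay below the sum and the other pair above it.

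Cyp2c37, which had the highest level of the family in NTC-Veh, went from 1341 and 1241.3 CPM to 81.4, 69.5 and 108 CPM (log2 fold change -3.90, SE 0.40, adjusted p = 5.9e-05). Cyp2c54 went from 480.3 and 444 CPM to 21.3, 25.8 and 31.9 CPM (-4.14, SE 0.38, adjusted p = 3.9e-05). Cyp2c50, the third of these relatives and like them a fatty acid oxidizing enzyme, went from 1132 and 1015 CPM to 100.1, 142 and 153 CPM (-3.03, SE 0.29, adjusted p = 2.2e-05). All 3 fell without overlap, and the log2 fold change of their sum was -3.53.

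Cyp2c38, an arachidonic acid epoxygenase, went from 143 and 169 CPM to 9.02, 7.80 and 13.8 CPM (log2 fold change -3.94, SE 0.43, adjusted p = 0.000121). Cyp2c39, which oxidizes arachidonic acid and retinoic acid, was the member with the lowest level and went from 12.4 and 15.2 CPM to 1.34, 1.54 and 1.95 CPM (-3.10, SE 0.24, adjusted p = 4.7e-06). With vehicle it had 454 and 549 estimated counts and with CCl4 62.8, 82.5 and 75.4, so its change was well above the 3 counts taken as the floor. The sum of Cyp2c38 and Cyp2c39 changed by -3.85.

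The 3 members with whole counts fell least. Cyp2c29, an epoxygenase of arachidonic acid, had 924 and 1081 CPM with vehicle and 287, 326 and 386 CPM with CCl4 (log2 fold change -1.59, SE 0.19, adjusted p = 6.4e-05). Cyp2c70, the muricholic acid enzyme, had 708 and 647 CPM with vehicle and 229, 156 and 264 CPM with CCl4 (-1.65, SE 0.19, adjusted p = 5.5e-05). Cyp2c23, an epoxygenase known also from the kidney, had 399 and 349 CPM with vehicle and 187, 153 and 194 CPM with CCl4 (-1.07, SE 0.24, adjusted p = 0.00372). Kidney tubule markers summed to at most 1.22 CPM in any liver. The other 7 members fell by 7.67-fold to 20.5-fold, against 2.10-fold to 3.13-fold for these 3, a difference that was not tested.

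**Figure D2:**
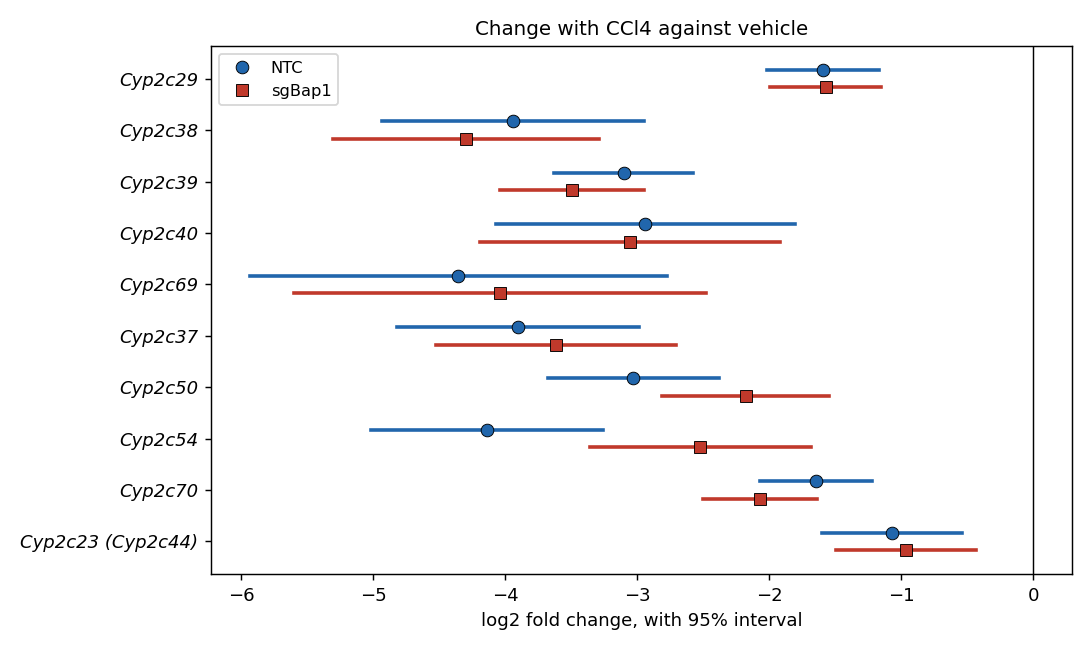
Log2 fold change of each member with CCl4 against vehicle (x axis, lines are 95% intervals) in NTC (circles) and sgBap1 livers (squares). Every interval lay below 0, from -4.36 for Cyp2c69 in NTC to -0.97 for Cyp2c23 in sgBap1 livers, and the points of Cyp2c54 lay farthest apart, at -4.14 and -2.52.

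**Figure D3:**
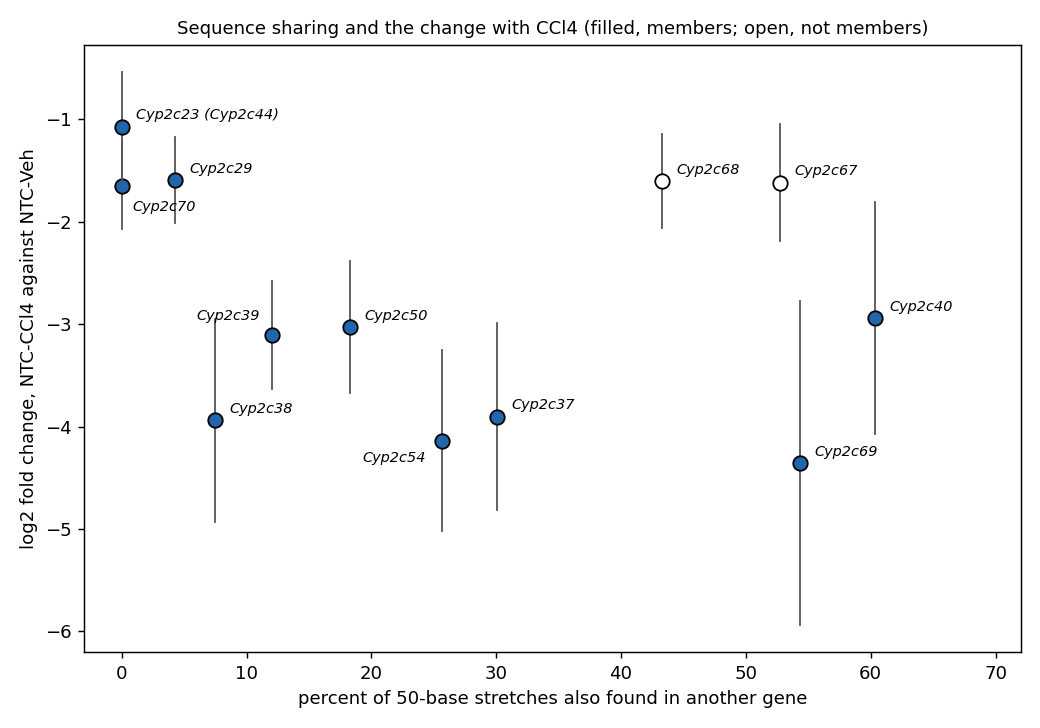
Log2 fold change in NTC livers (y axis, lines are 95% intervals) against the percentage of 50-base stretches that a gene shares with another gene (x axis), with members filled and Cyp2c67 and Cyp2c68 open. The members with at most 4.25% shared lay between -1.65 and -1.07 and the other members between -4.36 and -2.94, while Cyp2c68 and Cyp2c67, with 43.3% and 52.8% shared, lay at -1.60 and -1.62.

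The same comparison in sgBap1 livers asks whether the family also fell where Bap1 was targeted in hepatocytes. All 10 members were again called lower and all were lower without overlap, where 28.0% of all genes were called lower and 34.9% were lower without overlap. The median log2 fold change of the members was -2.79, against 0.04 for all genes. Without sgBap1-CCl4 replicate 2, the liver with fat cell markers, all 10 members were still called, with a median of -2.44.

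Cyp2c38 had the lowest log2 fold change here at -4.29 (SE 0.44, adjusted p = 7.6e-05), from 152 and 168 CPM in sgBap1-Veh to 7.12, 4.25 and 13.2 CPM in sgBap1-CCl4. Cyp2c69 went from 466 and 533 CPM to 38.0, 6.88 and 46.2 CPM, which is -4.04 as a log2 fold change (SE 0.67, adjusted p = 0.00134). Cyp2c40 went from 636 and 739 CPM to 106, 27.5 and 114 CPM (-3.06, SE 0.49, adjusted p = 0.000933). Replicate 2, the liver with fat cell markers, was the lowest of its group in these 3 genes and in Cyp2c29, Cyp2c37, Cyp2c23, Cyp2c50 and Cyp2c54, that is in all members but Cyp2c39 and Cyp2c70. Without that liver the log2 fold changes of Cyp2c38, Cyp2c69 and Cyp2c40 were -3.98, -3.57 and -2.64, each still called.

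Cyp2c37 fell from 840.1 and 668 CPM to 58.5, 31.3 and 94.8 CPM, or -3.62 on the log2 scale (SE 0.40). Cyp2c50 fell from 695 and 814 CPM to 155, 110.0 and 235 CPM (-2.18, SE 0.28), and Cyp2c54 from 220.0 and 304 CPM to 39.6, 26.4 and 70.7 CPM (-2.52, SE 0.37). The values of Cyp2c39 fell from 11.3 and 12.6 CPM to 0.817, 0.873 and 1.53 CPM (-3.50, SE 0.25). The adjusted p-values of these 4 genes were 8.2e-05, 0.000139, 0.000462 and 2.8e-06. Summed over relatives, the log2 fold change was -2.69 for Cyp2c37, Cyp2c50 and Cyp2c54, and -4.22 for Cyp2c38 and Cyp2c39. For Cyp2c40, Cyp2c67, Cyp2c68 and Cyp2c69 summed it was -2.36.

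Among the members with whole counts, Cyp2c29 fell from 1226 and 978 CPM to 358, 301 and 451 CPM (log2 fold change -1.57, SE 0.19, adjusted p = 6.5e-05), and Cyp2c70 from 840.1 and 700.3 CPM to 173, 178 and 199 CPM (-2.07, SE 0.19, adjusted p = 1.3e-05). Cyp2c23 fell from 402 and 296 CPM to 206, 118 and 212 CPM (-0.97, SE 0.24, adjusted p = 0.00625). The call on Cyp2c23 was the least secure of the family. It was lost without sgBap1-Veh replicate 1 (-0.72, adjusted p = 0.0719) and under scaling by library size alone (-0.51, adjusted p = 0.0559).

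Because members fell by different amounts, the make-up of the family sum differed between treatments. In NTC livers the mean share of Cyp2c29 in the summed CPM was 14.6% with vehicle and 29.1% with CCl4, that of Cyp2c23 5.43% and 15.6%, and that of Cyp2c70 9.86% and 18.7%. The shares of Cyp2c37 (18.8% and 7.47%), Cyp2c69 (13.0% and 3.80%) and Cyp2c54 (6.72% and 2.29%) went the other way, and none of these 6 shares overlapped between the treatments. In sgBap1 livers the share of Cyp2c29 was 20.6% with vehicle and 33.4% with CCl4, or 31.4% without replicate 2, and that of Cyp2c69 was 9.36% and 2.47%, or 3.27% without it. In these livers the shares of Cyp2c70 (14.4% and 17.0%) and Cyp2c54 (4.92% and 3.89%) overlapped between the treatments. The shares of Cyp2c29, Cyp2c23, Cyp2c37 and Cyp2c69 did not. These shares are sums to a fixed whole, so that a rise in one is a fall in others, and they were not tested.

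**Figure D4:**
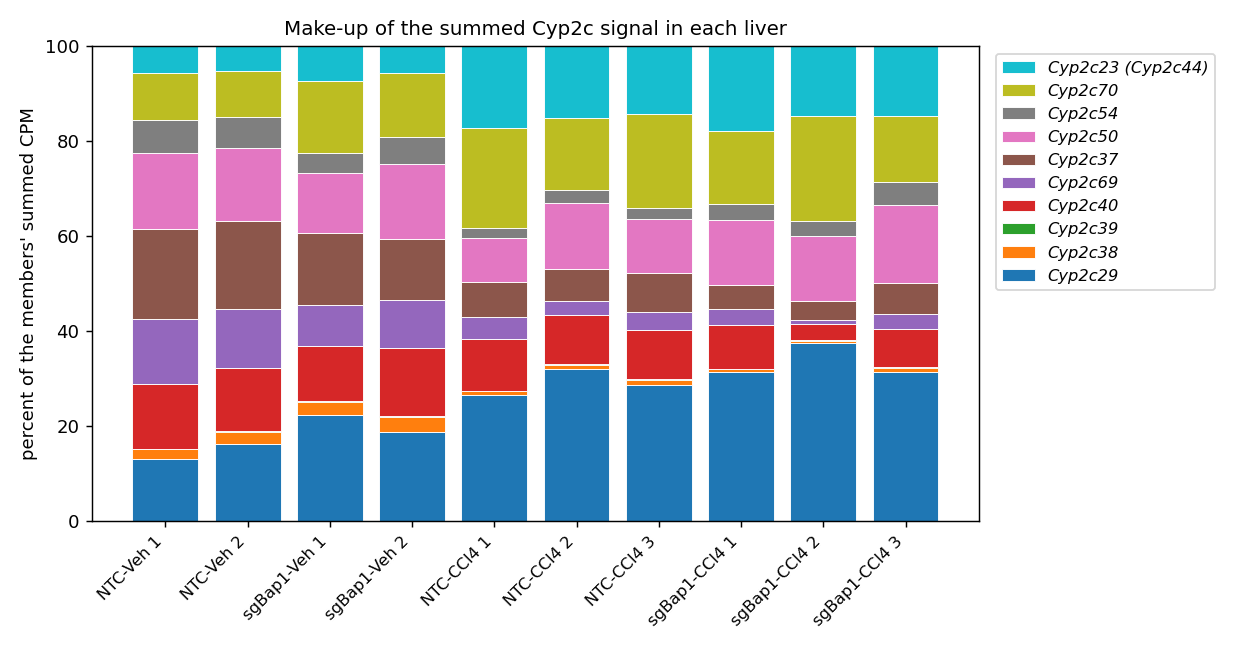
Share of each member in the summed CPM of the 10 members (y axis, percent) in each of the 10 livers (x axis). Cyp2c29 made up 13.1% to 16.2% in NTC-Veh and 26.5% to 32.1% in NTC-CCl4 livers, and Cyp2c69 12.4% to 13.6% and 2.97% to 4.60%.

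The comparison of sgBap1 with NTC livers under vehicle asks what targeting Bap1 did to the family without injury. No member was called, where 0.406% of all genes were, and edgeR gave none of the 10 an unadjusted p under 0.05, against 12.3% of all genes. DESeq2's Wald test also called none of the members. 7 of the 10 had log2 fold changes below 0, and 5 of them (Cyp2c37, Cyp2c40, Cyp2c50, Cyp2c54 and Cyp2c69) were lower in both sgBap1-Veh livers than in both NTC-Veh livers, where 19.2% of all genes were lower without overlap. These 5 belong to groups of relatives that share reads, so they do not count as 5 separate genes. Of the other relatives of Cyp2c40 and Cyp2c69, Cyp2c67 overlapped (log2 fold change -0.02) and Cyp2c68 was lower without overlap (-0.19). With 2 livers against 2, an exact permutation test cannot give a p below 0.333.

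The lowest value was that of Cyp2c69, with 466 and 533 CPM against 965 and 830.0 CPM, a log2 fold change of -0.85 with a 95% interval of -2.48 to 0.79. Cyp2c54 had 220.0 and 304 CPM against 480.3 and 444 CPM (-0.82, 95% interval -1.74 to 0.09), and Cyp2c37 840.1 and 668 CPM against 1341 and 1241.3 CPM (-0.78, 95% interval -1.74 to 0.19). For Cyp2c50 and Cyp2c40 the log2 fold changes were -0.51 and -0.43. The intervals of all 5 span 0. For the sum of Cyp2c37, Cyp2c50 and Cyp2c54 the log2 fold change was -0.68. For the sum of Cyp2c40, Cyp2c67, Cyp2c68 and Cyp2c69 it was -0.42. Macrophage markers moved the other way, with a sum of 445 to 586 CPM in sgBap1-Veh against 248 to 319 CPM in NTC-Veh livers. Their median log2 fold change was 0.94, with 1 of 12 called. Hepatocyte markers summed to 119586 to 124944 against 134406 to 165012 CPM, with a median log2 fold change of -0.13 and none called. Most of that sum was Alb, at 84217 and 88046 CPM in sgBap1-Veh against 116166 and 92935 CPM in NTC-Veh livers. The part of these markers in the members' values was not tested. Cyp2c29, Cyp2c70 and Cyp2c38 had values of 0.14, 0.18 and 0.03, and the adjusted p-values of the 10 members ran from 0.464 to 0.992. The sum of Cyp2c38 and Cyp2c39 had 0.017.

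**Figure D5:**
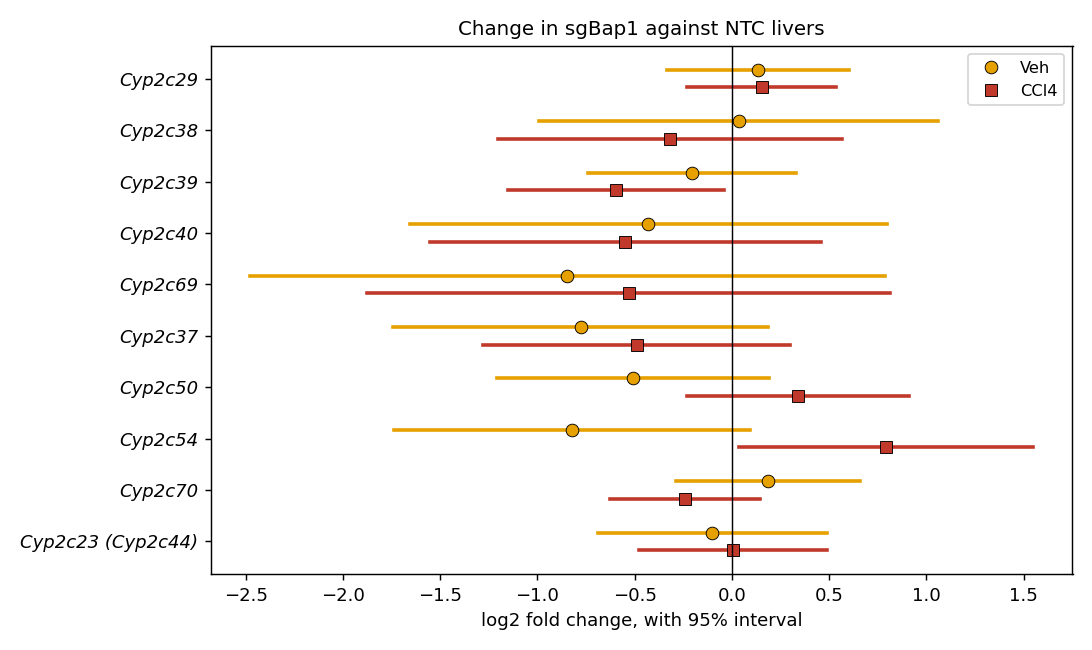
Log2 fold change of each member in sgBap1 against NTC livers (x axis, lines are 95% intervals) with vehicle (circles) and with CCl4 (squares). The vehicle points ran from -0.85 for Cyp2c69 to 0.18 for Cyp2c70 and the CCl4 points from -0.60 for Cyp2c39 to 0.79 for Cyp2c54, and no member was called in either comparison.

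With CCl4, no member was called between sgBap1 and NTC livers either, where 0.329% of all genes were, and DESeq2's Wald test called none. An unadjusted p under 0.05 was given for 2 members by edgeR, against 14.0% of all genes. These were Cyp2c39, at 0.817, 0.873 and 1.53 CPM against 1.34, 1.54 and 1.95 CPM (log2 fold change -0.60, 95% interval -1.15 to -0.04, adjusted p = 0.323), and Cyp2c54, at 39.6, 26.4 and 70.7 CPM against 21.3, 25.8 and 31.9 CPM (0.79, 95% interval 0.04 to 1.55, adjusted p = 0.337). Summed with its relatives Cyp2c37 and Cyp2c50, Cyp2c54 had a log2 fold change of 0.17, and Cyp2c38 and Cyp2c39 summed had -0.35. The sum of Cyp2c40, Cyp2c67, Cyp2c68 and Cyp2c69 had -0.29. No member was without overlap between the groups, where 20.3% of all genes were. The members' values moved in opposite directions with the liver left out. Without sgBap1-CCl4 replicate 2 the median of the members went from -0.28 to -0.03 and the value of Cyp2c54 to 1.07 (edgeR adjusted p = 0.229). Cyp2c69 then went from -0.53 to -0.06 and Cyp2c40 from -0.55 to -0.13. Without sgBap1-CCl4 replicate 3 the median was -0.58, Cyp2c54 had 0.32 (edgeR adjusted p = 0.513) and Cyp2c39 had -0.93 (edgeR adjusted p = 0.0967). The sign of Cyp2c29 depended on one liver, with 0.15 over all livers and -0.022 without sgBap1-CCl4 replicate 3. The value of Cyp2c23 also crossed 0, from -0.145 to 0.23 with each liver left out in turn.

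The interaction, which asks whether CCl4 changed a gene differently in sgBap1 and NTC livers, was called for no member and for 0% of the 17015 genes by edgeR, although 10.4% had an unadjusted p under 0.05. DESeq2's Wald test called 408 genes and no member. Cyp2c54 had the highest value of the members, 1.61 (95% interval 0.42 to 2.80, edgeR adjusted p = 0.315), and was the one member with an unadjusted p under 0.05. It fell 17.6-fold in NTC and 5.75-fold in sgBap1 livers, and with each liver left out in turn its interaction ran from 1.14 (without sgBap1-CCl4 replicate 3) to 1.89 (without sgBap1-CCl4 replicate 2), with edgeR adjusted p-values of 0.125 to 0.583. Its relative Cyp2c50 had 0.85 (95% interval -0.05 to 1.75, adjusted p = 0.517), and Cyp2c37, the third of this group, 0.29. For the sum of these 3 genes the difference was 0.84. It was 0.13 for Cyp2c40, Cyp2c67, Cyp2c68 and Cyp2c69 summed, and -0.37 for Cyp2c38 and Cyp2c39 summed. Cyp2c70 had the lowest value at -0.42 (95% interval -1.03 to 0.19, adjusted p = 0.658). The members' median interaction was 0.06, and 0.31 without sgBap1-CCl4 replicate 2 but -0.17 without sgBap1-CCl4 replicate 3. Without replicate 2, Cyp2c40 went from -0.12 to 0.30, Cyp2c69 from 0.31 to 0.79 and Cyp2c37 from 0.29 to 0.60.

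Promoter sequence was at hand for 8 of the 10 members, as RefSeq windows of 300 bases around the start on GRCm38.p6, and it was searched on both strands because the members fell together. The letters CAAAGNCCA, as bound by the liver factor HNF4A, were in 3 of the 8 windows (Cyp2c40, Cyp2c69 and Cyp2c70) and in 1.98% of 32851 promoter windows. The C/EBP letters TTGCNNAA were in 3 of 8 (Cyp2c37, Cyp2c40 and Cyp2c69) against 10.8%, the TATA box TATAAA in 6 of 8 against 13.6%, and the nuclear receptor motif AGGTCA in 2 of 8 (Cyp2c29 and Cyp2c70) against 16.3%. The STAT5 letters TTCNNNGAA and the HNF1 motif were in none of the 8, against 8.30% and 0.0609%. Overlaps between motifs were not removed, and relatives such as Cyp2c40 and Cyp2c69 are not independent. For printing, the start was the most upstream annotated one, 30 and 47 bases upstream of the RefSeq start for Cyp2c69 and Cyp2c70. Motifs counted in the windows can therefore lie outside the printed bases. The 120 bases upstream of that start are shown for the 3 members with the HNF4A letters, which stand in capitals together with AGGTCA in Cyp2c70, at chr19:39812815-39812934, chr19:39886800-39886919 and chr19:40187334-40187453, all on the minus strand. Those of Cyp2c40 and Cyp2c69 were the same at 118 of 120 bases.
Cyp2c40: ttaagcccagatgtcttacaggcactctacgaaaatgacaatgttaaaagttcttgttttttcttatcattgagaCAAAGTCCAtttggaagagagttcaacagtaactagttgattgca
Cyp2c69: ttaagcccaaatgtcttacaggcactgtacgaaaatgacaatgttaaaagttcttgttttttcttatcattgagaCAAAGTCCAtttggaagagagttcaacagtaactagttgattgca
Cyp2c70: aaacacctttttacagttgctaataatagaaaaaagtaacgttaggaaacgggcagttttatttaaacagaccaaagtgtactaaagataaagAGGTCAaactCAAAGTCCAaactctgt

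Not every factor that binds such letters was called. Of 19 regulators of liver P450 genes tested, 14 were lower and 0 higher with CCl4 in NTC livers, and 13 lower in sgBap1 livers, with median log2 fold changes of -0.83 and -0.60. Of all genes tested, 26.6% were called lower and 27.4% higher with CCl4 in NTC livers. In sgBap1 livers 28.0% were called lower and 29.0% higher. These shares stand beside the counts of this list and of those that follow. Nr1i3, the nuclear receptor CAR that senses drugs, fell by 2.45 on the log2 scale in NTC livers (SE 0.27, adjusted p = 5.5e-05), Cebpa fell by 1.56 (SE 0.18, adjusted p = 6.4e-05) and Rxra, the partner of many nuclear receptors, fell by 0.82 (SE 0.11, adjusted p = 0.000147). Hnf4a itself was not called, at -0.25 (SE 0.13, adjusted p = 0.125). Between sgBap1 and NTC livers no regulator was called under either treatment.

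Of genes that supply P450 enzymes with electrons and haem, 11 of 13 were lower and 1 higher in each genotype with CCl4, with medians of -0.71 in NTC and -1.04 in sgBap1 livers. Alas1, the enzyme that starts haem synthesis, fell by 1.43 in NTC livers (SE 0.25, adjusted p = 0.000819), and Cyb5a, an electron donor, fell by 1.35 (SE 0.18, adjusted p = 0.00015). Of 16 tested genes that also handle arachidonic acid or its epoxides, 9 were lower and 1 higher in NTC, and 8 lower and 3 higher in sgBap1 livers. Ephx2, which hydrolyses the epoxides that Cyp2c enzymes make, fell by 1.94 in NTC livers (SE 0.16, adjusted p = 7.7e-06), and Cyp2j5, another epoxygenase, fell by 1.47 (SE 0.24, adjusted p = 0.000648). Ephx1 was not called, at -0.41 (adjusted p = 0.196).

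Of 12 bile acid enzymes, to which Cyp2c70 adds a step, 10 were lower in NTC and 11 in sgBap1 livers, with medians of -2.11 and -2.35. Slc27a5, which activates bile acids for conjugation, fell by 2.80 in NTC livers (SE 0.19, adjusted p = 2.6e-06). Of 25 other drug-metabolizing P450 genes, 21 were lower and 1 higher in NTC and 24 lower in sgBap1 livers, with medians of -1.85 and -2.39, so the fall was shared by most other P450 genes of the list. Cyp2e1 fell by 5.71 (SE 0.34, adjusted p = 1.9e-06) and Cyp3a11 fell by 2.22 (SE 0.35, adjusted p = 0.000631) in NTC livers.

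Growth hormone acting through Stat5b sets the sex difference of many liver P450 genes. Of 9 genes of this control, 6 were lower and 1 higher with CCl4 in NTC livers, and 5 lower and 1 higher in sgBap1 livers, and the receptor Ghr fell by 1.91 in NTC livers (SE 0.19, adjusted p = 2e-05). Of 18 genes known to be higher in females, 16 were lower and 1 higher in NTC and 18 lower in sgBap1 livers, with medians of -3.20 and -4.23. Of 13 tested genes known to be higher in males, 8 were lower and 1 higher in NTC livers, with a median of -1.54, and 7 lower and 1 higher in sgBap1 livers, with a median of -1.17. Between sgBap1 and NTC livers, 1 of the 9 growth hormone genes was called higher under vehicle and 1 under CCl4, and 1 of the 12 bile acid enzymes was called lower under CCl4. Of all genes tested, 0.406% were called under vehicle and 0.329% under CCl4. The 18 genes known to be higher in females summed to 6923 to 7156 CPM in sgBap1-Veh against 3311 to 4415 CPM in NTC-Veh livers. Their median log2 fold change between genotypes was 0.67 with vehicle and -0.35 with CCl4, and their median interaction -1.22, with none called.

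Markers of liver zones and of other cell types also changed with CCl4. Of 14 pericentral hepatocyte markers, 12 were lower in NTC and 13 in sgBap1 livers, with medians of -2.22 and -2.61 and a summed level between 13248 and 17006 CPM in vehicle livers that was 1482 to 2182 CPM after CCl4. Of 14 periportal markers, 12 were lower and 1 higher in NTC and 12 lower in sgBap1 livers, with medians of -1.67 and -1.39. Of 11 general hepatocyte markers, 8 were lower in NTC, and 5 lower and 1 higher in sgBap1 livers, with medians of -0.87 and -0.56. The members' medians of -3.07 and -2.79 lay below those of these hepatocyte lists, but above the -3.20 and -4.23 of the genes known to be higher in females. The 3 members with whole counts lay above the pericentral medians, at -1.65 to -1.07 in NTC and -2.07 to -0.97 in sgBap1 livers. Of 12 macrophage markers, 9 rose in NTC, and 7 rose and 2 fell in sgBap1 livers, where 27.4% and 29.0% of all genes were called higher. Under CCl4 they summed to between 1024 and 1277 CPM in NTC and between 1097 and 1483 CPM in sgBap1 livers, above both vehicle groups. None of the 12 was at 0 in all livers of a group. The part of these shifts in the members' fall was not tested.

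The counts for the remaining marker lists are small, and several lie near the shares of all genes called higher, 27.4% in NTC and 29.0% in sgBap1 livers. Of these lists, 4 of 7 stellate markers rose in NTC and 3 of 7 in sgBap1 livers, and 2 of 6 cholangiocyte markers rose in each. For endothelial markers 3 of 6 rose in NTC, and 2 rose and 2 fell in sgBap1 livers, while 2 of 7 lymphocyte markers rose in NTC and none was called in sgBap1 livers. Of 4 tested intestinal markers 2 fell in each genotype, where 26.6% and 28.0% of all genes were called lower. The only Cyp2c gene outside the members that was tested and not called with CCl4, Cyp2c55, stood at no more than 6.19 CPM in any liver.

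The genes outside the family whose log2 CPM followed the members' log2 summed CPM most closely over the 10 livers were Ece1, Ces2a and Lgr4 (Pearson r = 0.994 each) and Pdp2 and Ces3b (r = 0.993 each). Ces2a and Ces3b are carboxylesterases, and Ces3b went from 648 CPM in NTC-Veh to 18.3 CPM in NTC-CCl4 livers. The livers share the split between vehicle and CCl4, and 10.3% of the 12024 genes compared had r of at least 0.95. Within groups the r of these 5 genes was 0.734 to 0.881, over the same 10 livers after group means were taken out.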

How the data were processed

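RNA-seq of 10 mouse livers was analysed. The authors aligned reads with STAR 2.7.6a to GRCm38 and estimated counts with Salmon 1.4.0 on GENCODE vM25, and the deposited table holds these estimated counts (expected counts) per gene, without normalization; 9.22% of the values are not whole, since reads that match several genes are shared out. Groups came from the sample labels.

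Rounded counts were modelled with edgeR 4.0.16 under R 4.3.3 (filterByExpr, TMM, one model of 4 groups, robust quasi-likelihood F-test, two-sided, Benjamini-Hochberg over all 17015 tested genes, threshold 0.05), and the standard error was taken as the log2 fold change divided by the square root of F. The script was tested on simulated data. CPM were scaled by TMM, and levels per kb used the transcript with the longest coding sequence. Stretches of 50 bases, coding sequences and positions came from GENCODE vM21, not vM25, and promoters from RefSeq. Coding sequences were aligned in pairs with Biopython and in groups with MAFFT 7.526. The 10 members and all lists were chosen with earlier results of these data known. Named genes are the members, the genes that share reads with them, at most 4 genes with the highest mean CPM from each list, and the 5 genes most like the summed members. Genes named from the lists are fewer than this rule allows.

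The alternatives were DESeq2 size factors, library size alone, other filters, the replicate number as a block, the edgeR 3 method, DESeq2 1.42.0, the 2 groups compared alone, each liver left out and, for values only, relatives summed. Sums over relatives that share at least 5% of stretches were chosen after seeing the data. No batch is named in the labels. The labels number the replicates without naming the mouse behind each, and p-values measure the spread between these livers. Libraries of a group differed by more than counting noise, with a mean chi-square per gene of 14.5 to 85.9 (1 degree of freedom), so none was a copy of another. The total count ranged from 33047900 to 52199900 per liver.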

Additional observations from a re-analysis of the deposited data

Results flagged for a closer look

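For Cyp2c54 every sgBap1 liver stood on one side of the NTC mean with vehicle and on the other with CCl4. With vehicle the sgBap1 livers had 220.0 and 304 CPM, below the NTC mean of 462 CPM, and with CCl4 they had 39.6, 26.4 and 70.7 CPM, above the NTC mean of 26.3 CPM, although the value of replicate 2 was nearly at that mean. The interaction of 1.61 did not pass edgeR's quasi-likelihood test (adjusted p = 0.315). Cyp2c54 shares reads with Cyp2c37 and Cyp2c50. Their sum had log2 fold changes between genotypes of -0.68 with vehicle and 0.17 with CCl4. How many of all genes cross the NTC mean in this way, in either direction, was not counted.

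Cyp2c70 showed the opposite arrangement. The sgBap1 livers had 840.1 and 700.3 CPM with vehicle against an NTC mean of 678 CPM, and 173, 178 and 199 CPM with CCl4 against an NTC mean of 216 CPM. Its interaction was -0.42 and did not pass the same test either (adjusted p = 0.658).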

How the results depend on the processing

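Each member's fall with CCl4 kept its direction and its call in NTC livers under all 18 alternatives (180 values), and in sgBap1 livers in 178 of 180, the exceptions being the 2 values of Cyp2c23 given above. No member was called in any alternative between genotypes or for the interaction. Leaving out each liver gave Cyp2c29 between genotypes with CCl4 values of -0.022 (without sgBap1-CCl4 replicate 3) to 0.28. Cyp2c23 ran from -0.145 to 0.23 in that comparison. With vehicle Cyp2c29 ran from -0.040 to 0.29, Cyp2c38 from -0.085 to 0.16 and Cyp2c23 from -0.34 to 0.10. The interactions of Cyp2c29, Cyp2c37, Cyp2c40, Cyp2c23 and Cyp2c69 also took values on both sides of 0. Scaled by library size alone, the log2 ratio of the members' summed CPM with CCl4 was -2.11 in NTC and -1.78 in sgBap1 livers, against -2.58 and -2.25.

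Counts over all genes moved more. Between genotypes with vehicle, 69 genes were called, but 32 with library size alone, 1 with the replicate block, 553 by DESeq2's Wald test and 27 in a model of the 2 groups alone. With CCl4, 56 were called, but 94 with no filter beyond 1 count in total, 24 with the replicate block, 481 by DESeq2 and 28 in a model of the 2 groups alone. For the interaction, 0 became 2 with library size alone, 34 with no filter and 408 by DESeq2. Leaving out each liver gave 0 to 150 genes with vehicle, 1 to 71 with CCl4 and 0 to 7 for the interaction, and the 150 and the 7 came without sgBap1-CCl4 replicate 2, the 0 with vehicle without NTC-Veh replicate 2 and the 1 with CCl4 without NTC-CCl4 replicate 1.

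The replicate numbers did not pair the livers, since the deviations of same-numbered livers of different groups correlated at -0.194 to 0.125, over 0.1 in 1 of 13 pairs. With the replicate number as a block, 8411 genes were called for CCl4 in NTC and 8898 in sgBap1 livers, 10 of 10 members were called in both, and 0 members in the other comparisons.

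All 11 genes linked by any shared stretch, summed, changed with CCl4 by -2.64 in NTC and -2.28 in sgBap1 livers. Cyp2c29 summed with Cyp2c53-ps changed by -1.59 and -1.57. Between genotypes that sum had 0.14 with vehicle and 0.15 with CCl4. To 2 decimals these are the values of Cyp2c29 alone. The sums over relatives were not refitted without sgBap1-CCl4 replicate 2. Depth did not limit the members, but 2 or 3 livers per group, the sharing of reads among 7 members and the fat cell markers of 1 liver do.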
